A study of Sus scrofa with 16 samples.

Results

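The complement genes and inhibitors described here are 9 genes, C1QA, C1QB, C1QC, C1R, C1S, SERPING1, C3, CFB and C5. Their members were found by name: a non-control probe was taken when its gene name in the array files, or the symbol in brackets in its description, was one of the 9. This gave 17 of the 43603 probes on the array. C3 had 5 probes, SERPING1 had 3, C1S and C5 had 2 each, and C1QA, C1QB, C1QC, C1R and CFB had 1 each. The RefSeq table of the pig genome (Sscrofa11.1) gave all 17 the same symbols and no further probe. All 17 were well above background on all 16 arrays, so no member was lost to a filter on low signal.

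Duroc × Landrace × Large White barrows were fed a corn starch (CS) diet or a diet with raw potato starch (RPS), a starch that resists digestion in the small intestine, from 70 days of age for 100 days. The RPS diet held 230 g/kg of raw potato starch in the growing period and 280 g/kg in the finishing period. The CS diet held the same amounts of purified corn starch in its place. Proximal colonic mucosa, scraped from the lumen side, and liver were taken at 170 days of age after feed withdrawal, and each sample was measured on its own one-colour Agilent porcine array. There were 4 pigs per diet in each tissue, from different pens, giving the groups Colon CS, Colon RPS, Liver CS and Liver RPS. Both samples are bulk tissue, in which fewer cells of a type and less RNA per cell cannot be told apart.

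Complement is a cascade of plasma and tissue proteins that marks microbes and cell debris for removal. In its classical pathway the recognition molecule C1q, built from the chains of C1QA, C1QB and C1QC, carries the proteases C1r and C1s, and C1 inhibitor, the product of SERPING1, inactivates both proteases. All routes lead to the cleavage of C3, factor B (CFB) is the protease component of the alternative pathway, and cleavage of C5 opens the terminal pathway. Hepatocytes make most of the circulating C1r, C1s, C1 inhibitor, C3, factor B and C5, whereas C1q is made mainly by macrophages and dendritic cells in the tissues. In the RefSeq gene order C1QA, C1QC and C1QB lie next to each other between EPHA8 and EPHB2, C1R and C1S are neighbours between C1RL and LPCAT3, and CFB follows C2.

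The 60-base probes below are among those on which the diet results turn, printed as the array files give them. Each C1q chain was read by a sequence of its own: the C1QA, C1QB and C1QC probes share no more than 6 bases in a row with each other.
C1QB, A_72_P442926: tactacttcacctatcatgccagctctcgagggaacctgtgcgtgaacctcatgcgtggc
C1QC, A_72_P403253: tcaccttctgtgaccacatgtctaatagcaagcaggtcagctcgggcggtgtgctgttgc
C1S, A_72_P088781: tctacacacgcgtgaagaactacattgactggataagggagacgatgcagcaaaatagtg
C1S, A_72_P442680: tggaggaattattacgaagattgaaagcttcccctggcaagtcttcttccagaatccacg
SERPING1, A_72_P011466: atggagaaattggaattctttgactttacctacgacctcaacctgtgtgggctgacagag
SERPING1, A_72_P209407: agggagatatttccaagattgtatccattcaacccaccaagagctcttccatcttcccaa

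Among the 5 C3 probes, 2 overlap and so are not separate readings of the transcript. Their longest shared run, of 39 bases, is in capitals.
C3, A_72_P737664: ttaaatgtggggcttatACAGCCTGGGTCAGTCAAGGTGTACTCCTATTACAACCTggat
C3, A_72_P742730: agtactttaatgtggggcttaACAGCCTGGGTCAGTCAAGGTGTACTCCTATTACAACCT

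No other pair of member probes shares more than 9 bases in a row. Values below are log2 signals after quantile normalization, over the 8 arrays of a tissue for the diet comparisons and over all 16 arrays where tissues are compared. Levels of different probes are not comparable. For each member the probe with the highest mean signal is the lead probe.

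Before normalization the median signal was 56.3 to 70.8 on the colonic CS arrays, 34.2 to 42.5 on the colonic RPS arrays and 30.6 to 37.9 on the hepatic arrays. Each slide, scanned once, held 1 group, so slide and diet, and slide and tissue, cannot be told apart. The tissues matched their labels. All 7 colonic epithelial markers on the array were well above background on every colonic array, and the 6 hepatocyte markers had a median difference of -12.25 (log2, colon minus liver), with TTR above background on 0 of 8 colonic arrays.

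The first comparison asked which complement transcripts differed between the diets in the colonic mucosa. The 3 C1q chains and C1 inhibitor were lower in the RPS group, and C3, CFB, C5 and C1R did not pass the test. A probe passed both thresholds when its unadjusted p was under 0.05 and its change exceeded 1.5-fold. Of the 17 probes 6 did so, all lower with RPS, whereas 1.32% of all probes on the array passed in that direction and 2.94% in either direction. They belonged to C1QA, C1QB, C1QC, C1S (1 of 2 probes) and SERPING1 (2 of 3 probes). Of these genes the study had itself picked C1QB, C1QC, C1S and SERPING1 on the same arrays, so their direction is not independent evidence. The study also gave the name C1QB to a further probe, A_72_P407323, which has no gene name in the array files and is no member here. That probe was higher with RPS, by 1.33 ± 0.19, opposite to the C1QB probe described below. None of the 17 passed after Benjamini-Hochberg adjustment over all probes in limma, where the smallest adjusted p was 0.450 and 7 had an unadjusted p under 0.05. With arrays scaled to the 75th percentile instead, 6 member probes passed both thresholds, all lower, although the share of lower among all probes that passed went from 44.8% to 31.4%.

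**Figure D1:**
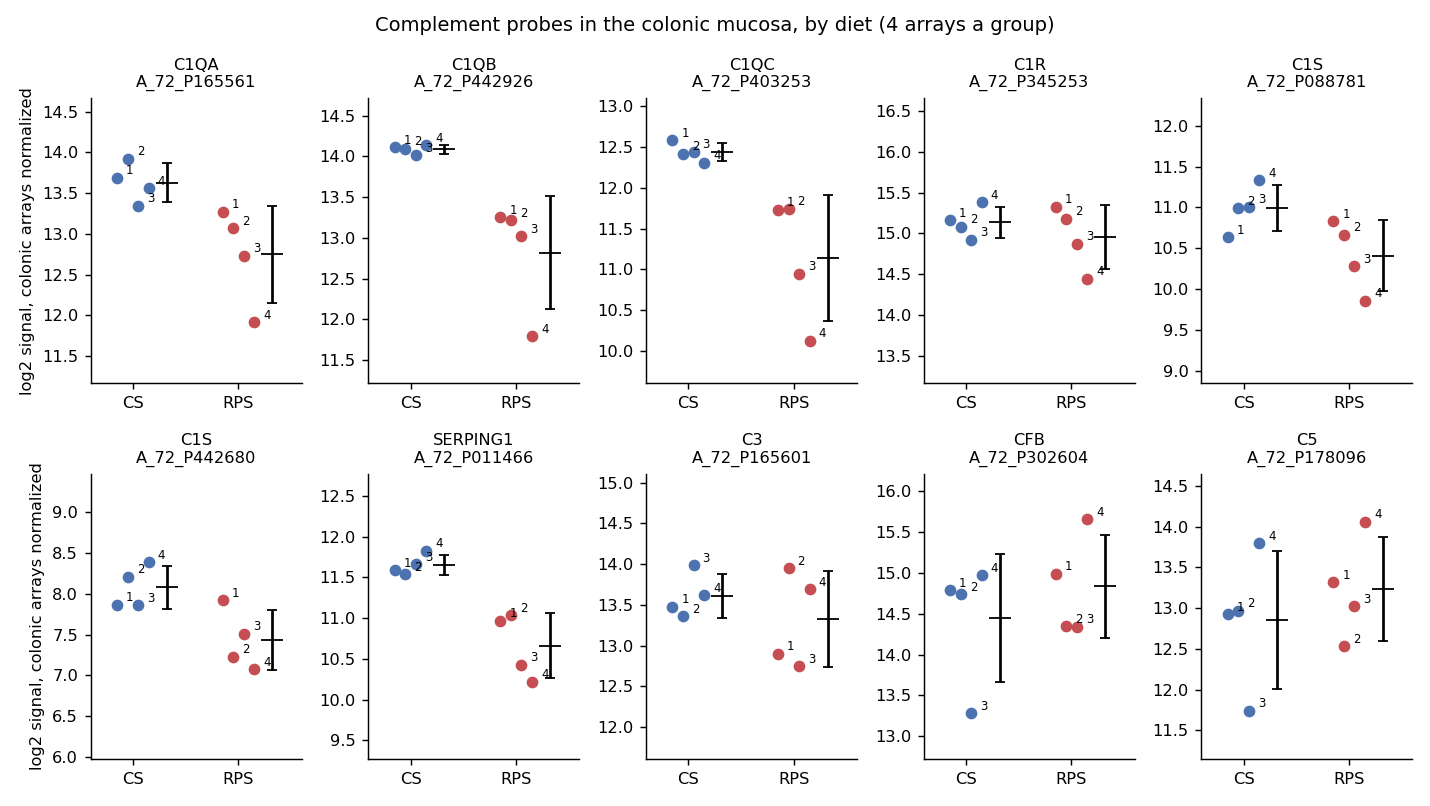
Log2 signal of the lead probe of each complement gene, and of the other C1S probe that passed both thresholds, on each colonic array by diet. Points are single arrays with their replicate number, the horizontal mark and bars are the mean ± SD of 4 arrays, and every panel spans the same range of log2 units. The CS and RPS points do not overlap for C1QA, C1QB, C1QC and SERPING1, and they overlap for C1R, C1S, C3, CFB and C5.

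C1QB, which encodes the B chain of C1q, measured 14.11, 14.09, 14.01 and 14.13 on the CS arrays and 13.25, 13.21, 13.02 and 11.79 on the RPS arrays. Every RPS array was below every CS array, and replicate 4 lay furthest down. The difference was -1.27 ± 0.32 (SE, log2, 4 arrays against 4), a 2.41-fold lower signal (limma unadjusted p = 0.00529, adjusted p = 0.594). The exact permutation test (two-sided) had p = 0.0286, the smallest that 4 arrays against 4 allow.

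C1QC, the C chain, measured 12.58, 12.42, 12.44 and 12.31 with CS and 11.73, 11.74, 10.95 and 10.13 with RPS. The groups again stood apart, with replicates 3 and 4 of the RPS group lowest. The difference was -1.30 ± 0.36, a 2.47-fold lower signal (limma unadjusted p = 0.00800, adjusted p = 0.657).

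C1QA, the A chain, measured 13.69, 13.92, 13.34 and 13.56 with CS and 13.27, 13.07, 12.73 and 11.92 with RPS. Here the gap between the highest RPS array and the lowest CS array was narrow. The difference was -0.88 ± 0.30, a 1.84-fold lower signal (limma unadjusted p = 0.0212, adjusted p = 0.819).

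The 3 chains shared the low value in replicate 4 of the RPS group. Without that array the differences were -0.60 ± 0.19 for C1QA, -0.92 ± 0.10 for C1QB and -0.96 ± 0.22 for C1QC, and all 3 still passed both thresholds. C1QA did not pass without replicate 2 of the CS group, at -0.78 (limma unadjusted p = 0.0565).

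SERPING1, whose product C1 inhibitor blocks C1r and C1s, measured 11.59, 11.54, 11.66 and 11.83 with CS and 10.97, 11.04, 10.43 and 10.22 with RPS at its lead probe. All RPS arrays were below all CS arrays. The difference was -0.99 ± 0.20, a 1.99-fold lower signal (limma unadjusted p = 0.00167, adjusted p = 0.450).

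A second SERPING1 probe, A_72_P209407, gave 6.55, 6.25, 6.40 and 6.71 with CS and 5.87, 5.76, 5.26 and 4.91 with RPS. These groups did not overlap either, and the difference was -1.03 ± 0.23 (limma unadjusted p = 0.00285, adjusted p = 0.517). With normexp background correction this dimmer probe differed by -0.49 and fell short of the fold threshold. The third probe, A_72_P689477, differed by -0.49 ± 0.21 in the same direction and did not pass (limma unadjusted p = 0.0505), with RPS replicate 2 at 9.43, inside the CS range of 9.33 to 9.70.

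In all, the groups stood apart at 5 of the 17 probes, each time with RPS lower, against 1.43% of all probes on the array. These were the probes of the 3 C1q chains and the 2 SERPING1 probes above.

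C1S, the effector protease of the C1 complex, lay close to the thresholds. Its second probe A_72_P442680 measured 7.87, 8.21, 7.86 and 8.39 with CS and 7.92, 7.23, 7.51 and 7.07 with RPS, so that RPS replicate 1 lay within the CS range. The difference was -0.65 ± 0.22, a 1.57-fold lower signal (limma unadjusted p = 0.0203, adjusted p = 0.815), but it passed neither without CS replicate 2 or 4 nor without RPS replicate 2 or 4, at -0.60, -0.55, -0.58 and -0.52. The lead probe A_72_P088781 measured 10.63, 10.99, 11.01 and 11.33 with CS and 10.83, 10.66, 10.28 and 9.86 with RPS. Its difference of -0.58 ± 0.25 was just short of the fold threshold, which is 0.585 on the log2 scale, with a limma unadjusted p of 0.0486. Another probe, A_72_P442675, is described as complement C1s in the array files but has no gene symbol and is no member here. That probe differed by -0.23 ± 0.22 and did not pass (limma unadjusted p = 0.332).

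C1R, the protease that activates C1s, measured 15.16, 15.08, 14.92 and 15.38 with CS and 15.32, 15.18, 14.87 and 14.44 with RPS. Apart from RPS replicate 4 the groups covered the same range. The difference was -0.18 ± 0.21 (95% interval -0.67 to 0.31, limma unadjusted p = 0.418).

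C3, the central component, measured 13.47, 13.36, 13.98 and 13.62 with CS and 12.90, 13.95, 12.75 and 13.69 with RPS at the lead probe. The RPS arrays split, replicates 2 and 4 lying within the CS range and replicates 1 and 3 below it. The 5 C3 probes differed by -0.33 to 0.03 between the diets, and none passed. At all 5 RPS replicate 3 was the lowest array.

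CFB, the alternative pathway protease, measured 14.79, 14.74, 13.28 and 14.97 with CS and 14.99, 14.35, 14.34 and 15.66 with RPS, and differed by 0.39 ± 0.46 (95% interval -0.69 to 1.47, limma unadjusted p = 0.425). C5, which yields the anaphylatoxin C5a and starts the terminal pathway, measured 12.92, 12.97, 11.74 and 13.80 with CS and 13.31, 12.53, 13.02 and 14.06 with RPS, and differed by 0.37 ± 0.49 (limma unadjusted p = 0.465). Both genes were lowest in CS replicate 3 and highest in RPS replicate 4. Without CS replicate 3 the differences were -0.004 ± 0.34 for CFB and 0.002 ± 0.41 for the C5 lead probe.

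**Figure D2:**
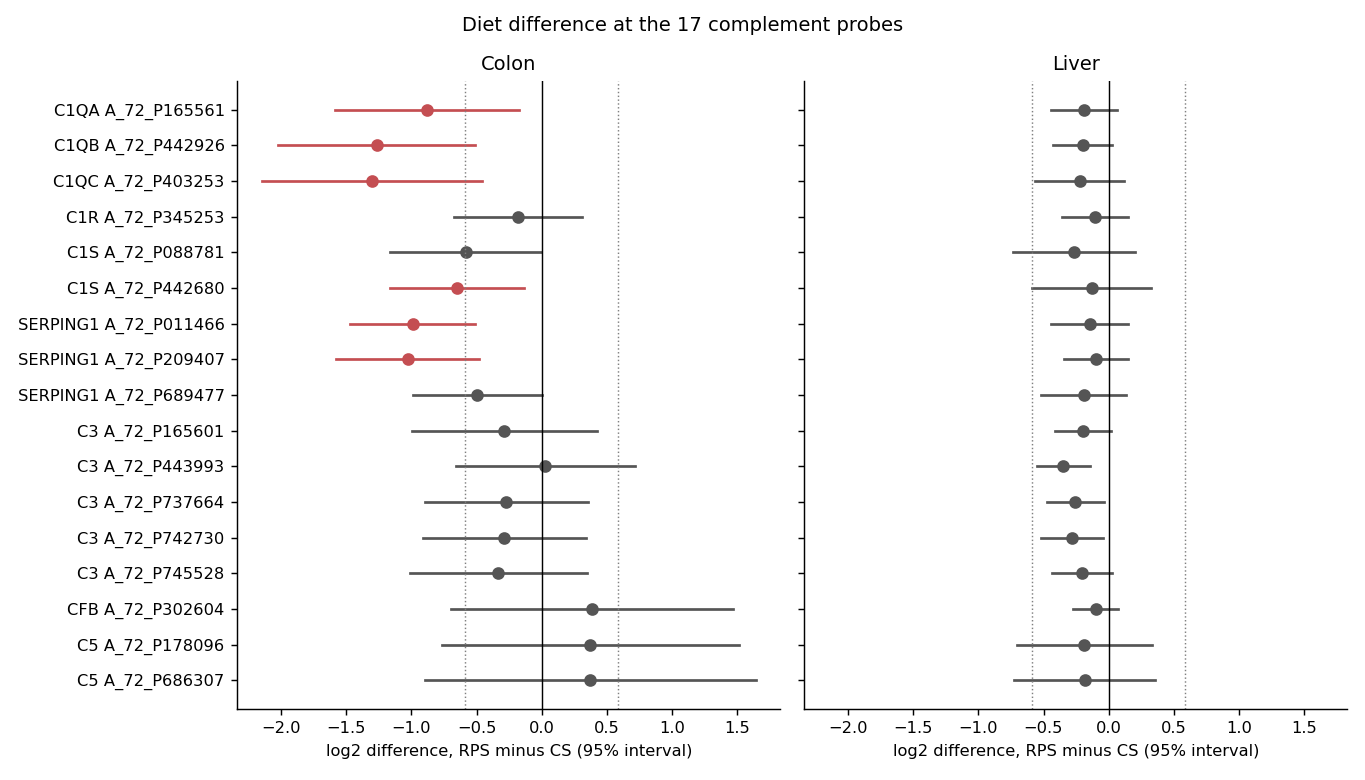
Log2 difference, RPS minus CS, at each of the 17 complement probes in colon and liver, with 95% intervals from limma (4 arrays against 4 in each tissue). Red marks the 6 probes past both thresholds, all in the colon, and dotted lines mark a 1.5-fold change. In the liver all 17 points lie below 0 and inside the dotted lines.

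How closely the probes of a member agreed across the colonic arrays varied by gene. After centring each probe on its mean, the probes of C3 differed by at most 0.32 on an array, those of C5 by at most 0.19, those of SERPING1 by at most 0.45 and those of C1S by at most 0.49. The spread between arrays was larger with RPS than with CS for 7 of the 9 lead probes, with a median SD of 0.60 and 0.24. It was smallest for C1QB in the CS group, with an SD of 0.05, and 0.69 in the RPS group. In the liver too the spread was larger with RPS, for 8 of the 9 lead probes, with a median SD of 0.19 and 0.09. The share over all probes was not counted.

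Markers of several cell types also had a lower median with RPS in the colon, though not every list followed C1q from array to array. The 5 macrophage markers on the array (CD163, AIF1, CD14, MRC1 and TYROBP) had a median diet difference of -0.30, 4 of the 5 were lower with RPS and none passed both thresholds. Their centred median was 0.18 to 0.31 on the CS arrays and -0.54 to 0.20 on the RPS arrays, with RPS replicate 4 lowest, as for C1q. All 4 fibroblast markers were lower, with a median of -0.50, and 2 of them passed (COL1A2 at -0.72 and PDGFRB at -0.66). The 3 smooth muscle markers had a median of -0.48, and their centred median was 0.11 to 0.32 with CS and -0.46 to -0.11 with RPS. All 4 T cell markers were lower too, with a median of -0.53, as were all 3 B and plasma cell markers, with a median of -1.60, whereas the 3 neutrophil markers had a median of 0.81. No T cell, B and plasma cell or neutrophil marker passed both thresholds, and the centred medians of each of these lists overlapped between the diets. The 5 endothelial markers had a median of -0.002, with 3 lower and none past both thresholds. The part of these cell types in the C1q, C1S and SERPING1 differences was not tested.

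The 7 epithelial markers had a median diet difference of 0.19, and none passed. Their centred median was lowest in CS replicate 3, at -1.56, and next lowest in RPS replicate 2, at -0.89. The same 2 arrays were lowest for the mean of C5 and CFB, at -1.33 and -0.40, and they had the highest medians of the 3 B and plasma cell markers, at 3.24 and 3.10. Their part in the C5 and CFB values was not tested.

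**Figure D3:**
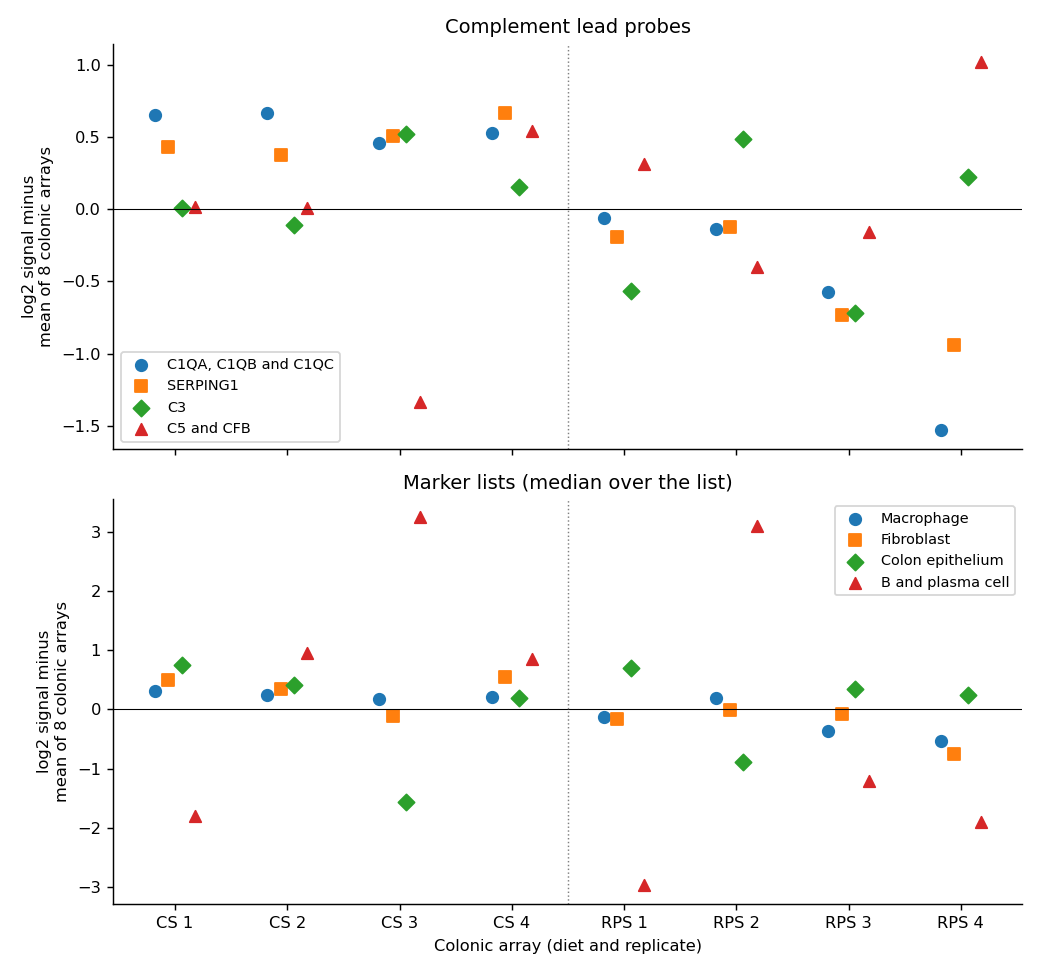
Centred log2 signal on each of the 8 colonic arrays for complement lead probes (upper panel) and for the median of marker lists (lower panel), 0 being the mean over the 8 arrays for each probe. C1q and SERPING1 lie above 0 on all 4 CS arrays and below 0 on all 4 RPS arrays, whereas C5 with CFB is lowest in CS 3, where the epithelial markers are also lowest.

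For each lead probe, the genes with the most similar centred pattern were sought among 5495 genes by the root mean square (RMS) difference over the 8 colonic arrays. Centring left the diet difference in the patterns, so genes that differed alike between the diets count as similar. How near a gene would come by chance was not tested. Nearest to C1QA were PGA5, an aspartic protease by its symbol (0.14), SLC46A2 (0.19) and CTSD, the lysosomal protease cathepsin D (0.20). For C1QB they were CTSD (0.21), PGA5 (0.22) and CTSZ, cathepsin Z (0.30). For C1QC they were CTSD (0.26), CTSZ (0.29) and PGA5 (0.30). CTSZ was also among the 3 nearest to SERPING1. The nearest to C1R was TLR8 (0.12), to C1S FBXL4 (0.15) and to C3 LOC100155404 (0.13). The nearest to SERPING1 was TPM2, a muscle tropomyosin, at 0.20. CFB was nearest to CREB3L4 (0.13), and POSTN, periostin, was among the 3 nearest to both CFB and C5. Among the members, C1QB and C1QC were most alike (0.19), followed by C5 and CFB (0.23) and by C1S and SERPING1 (0.25), and C1QC and C5 were furthest apart (1.29).

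In the liver, the question was whether the same transcripts differed between the diets where most of the complement proteins are made. None of the 17 probes passed both thresholds, whereas 1.76% of all probes passed as lower with RPS and 3.56% in either direction. The smallest adjusted p was 0.423 in limma. All 17 were lower with RPS, by a median of -0.19, while 51.0% of all probes were lower and their median was -0.004. The 6 hepatocyte markers on the array (ALB, APOA1, TTR, SERPINA1, TF and APOB) were lower with RPS as well, with a median of -0.15, and the medians of the fibroblast and endothelial markers were -0.43 and -0.32, none of these markers passing both thresholds. The medians of the macrophage, smooth muscle and B and plasma cell markers were -0.09, -0.07 and -0.14. The neutrophil median was -0.71, whereas the T cell median was 0.30. The part of these cell types in the shift of the complement probes was not tested. The probes are not independent, since 5 read C3 and 3 read SERPING1.

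C3 gave the smallest p-values in the liver. At probe A_72_P443993 it measured 15.13, 15.35, 15.25 and 15.36 with CS and 14.80, 14.92, 14.95 and 15.01 with RPS. All RPS arrays were lower, by -0.35 ± 0.09, a 1.27-fold difference (limma unadjusted p = 0.00467, adjusted p = 0.423; exact permutation p = 0.0286). The groups stood apart at 4 of the 5 C3 probes, with RPS lower, and at no other member probe, against 2.2% of all probes on the array. The 3 with an unadjusted p under 0.05 were A_72_P443993 and the overlapping pair, at -0.26 and -0.28, where 3.54% of all probes reached that p as lower with RPS. At the lead probe the values were 17.15, 17.07, 17.21 and 17.19 with CS and 16.86, 16.82, 17.03 and 17.13 with RPS, which overlapped slightly, and the difference was -0.20 ± 0.09 (limma unadjusted p = 0.0710).

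The C1q chains did not pass in the liver. C1QB measured 14.22, 14.11, 13.99 and 14.15 with CS and 13.83, 13.80, 13.96 and 14.10 with RPS, a difference of -0.20 ± 0.10 (limma unadjusted p = 0.0792). C1QC measured 12.44, 12.23, 12.11 and 12.21 with CS and 11.98, 11.68, 12.20 and 12.25 with RPS, a difference of -0.22 ± 0.15 (limma unadjusted p = 0.167). C1QA measured 13.29, 13.39, 13.17 and 13.29 with CS and 13.01, 13.17, 12.89 and 13.30 with RPS, a difference of -0.19 ± 0.11 (limma unadjusted p = 0.122). In none of the 3 did the groups stand apart, and the 95% intervals reached down to -0.44, -0.42 and -0.56 for C1QA, C1QB and C1QC, which is inside the 1.5-fold line.

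SERPING1 measured 16.01, 15.97, 15.99 and 15.91 with CS and 15.59, 15.67, 16.13 and 15.90 with RPS in the liver, a difference of -0.15 ± 0.13 (limma unadjusted p = 0.279). The RPS arrays lay on both sides of the CS arrays. C1R measured 18.15, 18.01, 18.16 and 18.09 with CS and 17.80, 17.90, 18.22 and 18.08 with RPS, a difference of -0.10 ± 0.11. C1S measured 14.60, 14.28, 14.79 and 14.64 with CS and 14.18, 14.13, 14.86 and 14.08 with RPS, a difference of -0.26 ± 0.20. In C1S, replicate 3 of the RPS group was the highest of all 8 arrays and the other 3 the lowest.

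CFB measured 18.23, 18.23, 18.28 and 18.15 with CS and 18.05, 18.07, 18.15 and 18.22 with RPS, a difference of -0.10 ± 0.07 (limma unadjusted p = 0.212). C5 measured 15.49, 16.15, 16.23 and 15.71 with CS and 15.45, 16.16, 15.54 and 15.69 with RPS, a difference of -0.19 ± 0.22 (limma unadjusted p = 0.429). CFB varied little between pigs in the liver, with SDs of 0.05 and 0.08, against 0.78 and 0.63 in the colon for CS and RPS. Its hepatic signal lay high on the array's scale, near that of ALB, whose hepatic means were 18.31 with CS and 18.25 with RPS. This does not compare amounts of RNA. No non-control spot was marked as saturated on any array. Whether a signal this high limits the spread after quantile normalization was not tested.

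**Figure D4:**
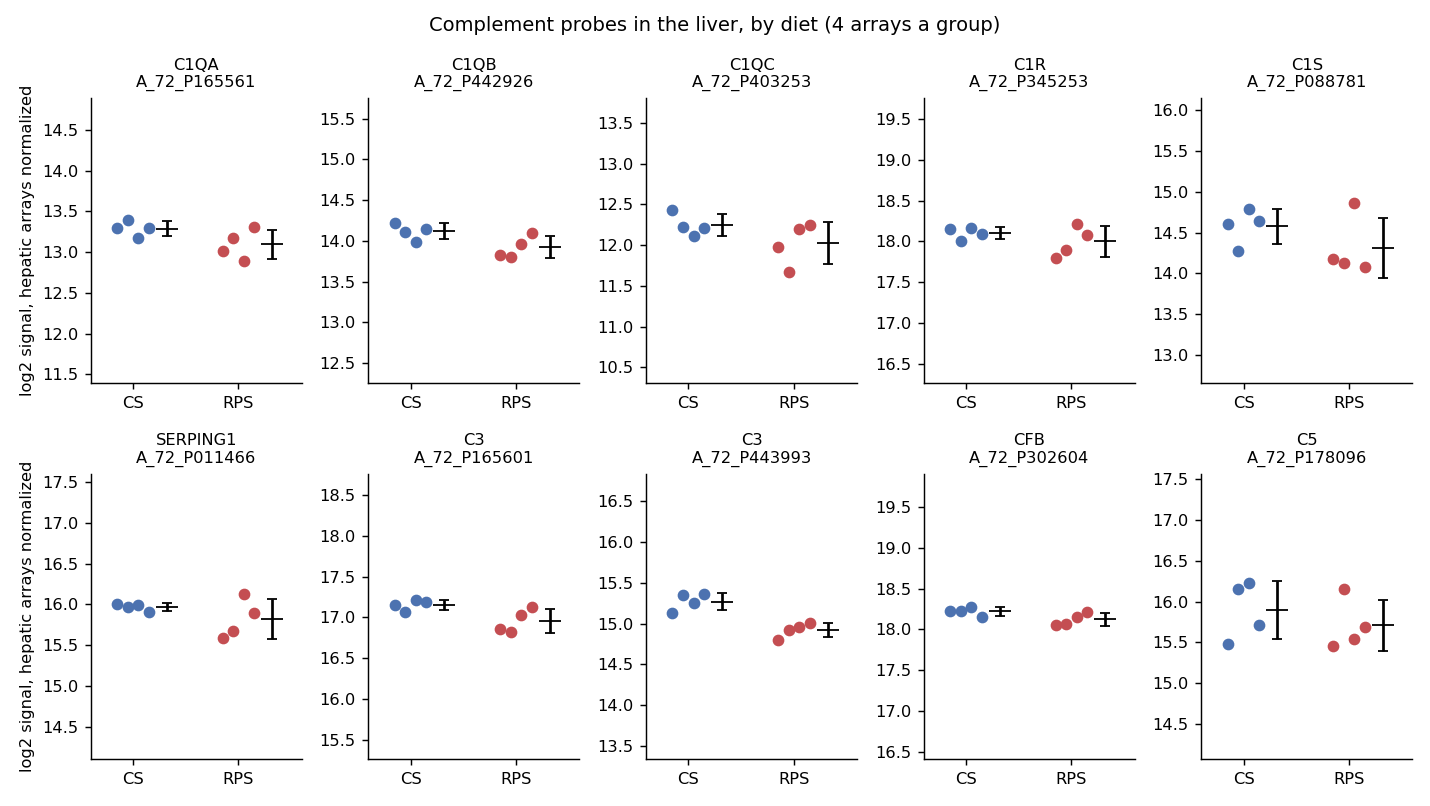
Log2 signal of the lead probe of each complement gene, and of C3 probe A_72_P443993, on each hepatic array by diet. Points are single arrays, the horizontal mark and bars are the mean ± SD of 4 arrays, and every panel spans the same range of log2 units. The groups stand apart at C3 probe A_72_P443993 and overlap in the other panels.

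Whether the diet difference itself differed between the tissues was tested as an interaction over the 16 arrays normalized together. At 5 of the 17 probes it passed both thresholds, each time with the colonic difference lower than the hepatic one, against 1.72% of all probes in that direction and 3.76% in either. The interaction was -1.17 ± 0.41 for C1QC (limma unadjusted p = 0.0134), -1.15 ± 0.37 for C1QB (limma unadjusted p = 0.00750) and -0.76 ± 0.35 for C1QA (limma unadjusted p = 0.0487). It was -0.88 ± 0.26 (limma unadjusted p = 0.00417) and -0.95 ± 0.27 (limma unadjusted p = 0.00321) for SERPING1 at A_72_P011466 and A_72_P209407. None passed after adjustment, with a smallest adjusted p of 0.675. For C1S it was -0.35 ± 0.33 and -0.54 ± 0.30 at its lead and second probe, and for the C3 lead probe -0.09 ± 0.35. C1QA passed here in fewer settings than it failed, since 14 of the 23 alternatives put it outside the thresholds.

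Colon and liver were then compared as the site of local against hepatic complement transcripts. All 17 probes had a lower mean in the colon, by a median of -3.84 (log2), and 16 passed an adjusted p under 0.05, whereas 24% of all probes were called higher in liver and 28.9% higher in colon. At 14 probes every colonic array lay below every hepatic array, against 12.2% of all probes. The 3 exceptions were the C1q chains.

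Among the members SERPING1 differed most by lead probe. It had a median of 11.15 (10.05 to 11.72) on the 8 colonic arrays and 15.89 (15.54 to 16.10) on the 8 hepatic arrays at its lead probe, so the tissues lay far apart. The difference was -4.83 ± 0.13, a 28.5-fold lower signal in the colon (limma adjusted p = 4.11e-13), and at its other probes it was -5.40 and -4.79. In C1S the colonic median was 10.59 (9.68 to 11.20) and the hepatic median 14.38 (14.04 to 14.79), a difference of -3.84 ± 0.16, or -4.31 at the second probe. C1R had a median of 15.19 (14.51 to 15.44) and 18.05 (17.78 to 18.16), a difference of -2.90 ± 0.12.

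C3 had a colonic median of 13.56 (12.72 to 14.02) and a hepatic median of 17.11 (16.82 to 17.23), and its 5 probes differed by -4.14 to -3.59. The medians of CFB were 14.83 (13.27 to 15.71) and 18.13 (18.02 to 18.20), a difference of -3.42 ± 0.25. For C5 they were 12.98 (11.63 to 14.10) and 15.65 (15.38 to 16.21), a difference of -2.73 ± 0.29, or -2.91 at the other probe. For each of these genes the exact permutation test of the lead probe gave p = 0.000155, the smallest that 8 arrays against 8 allow. That test treats the arrays as independent. The labels do not say whether colonic and hepatic samples came from the same pigs.

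The C1q chains were close in both tissues. C1QA had a colonic median of 13.30 (11.82 to 13.95) and a hepatic median of 13.24 (12.92 to 13.38), and the difference was -0.02 with a 95% interval of -0.40 to 0.35. C1QB differed by -0.53 ± 0.18 (limma adjusted p = 0.0260) and C1QC by -0.52 ± 0.21 (limma adjusted p = 0.0485), but the tissues overlapped and the exact permutation test gave p = 0.0834 and 0.151. The C1QC call was lost in 16 of 25 alternatives and the C1QB call in 3.

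Within the CS diet C1QB had a mean of 14.13 ± 0.06 (SD) in the colon and 14.08 ± 0.09 in the liver, and C1QC 12.38 ± 0.12 and 12.31 ± 0.12. Within the RPS diet C1QB had 12.78 ± 0.74 and 13.89 ± 0.13, and C1QC 11.004 ± 0.80 and 12.10 ± 0.24, with no overlap of the tissues for either. C1QA was 13.65 ± 0.26 and 13.29 ± 0.08 with CS, and 12.71 ± 0.64 and 13.11 ± 0.17 with RPS, with overlap in both diets. The other 6 lead probes were lower in the colon on all arrays within each diet, by -2.86 to -4.39 with CS and by -2.44 to -5.27 with RPS.

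**Figure D5:**
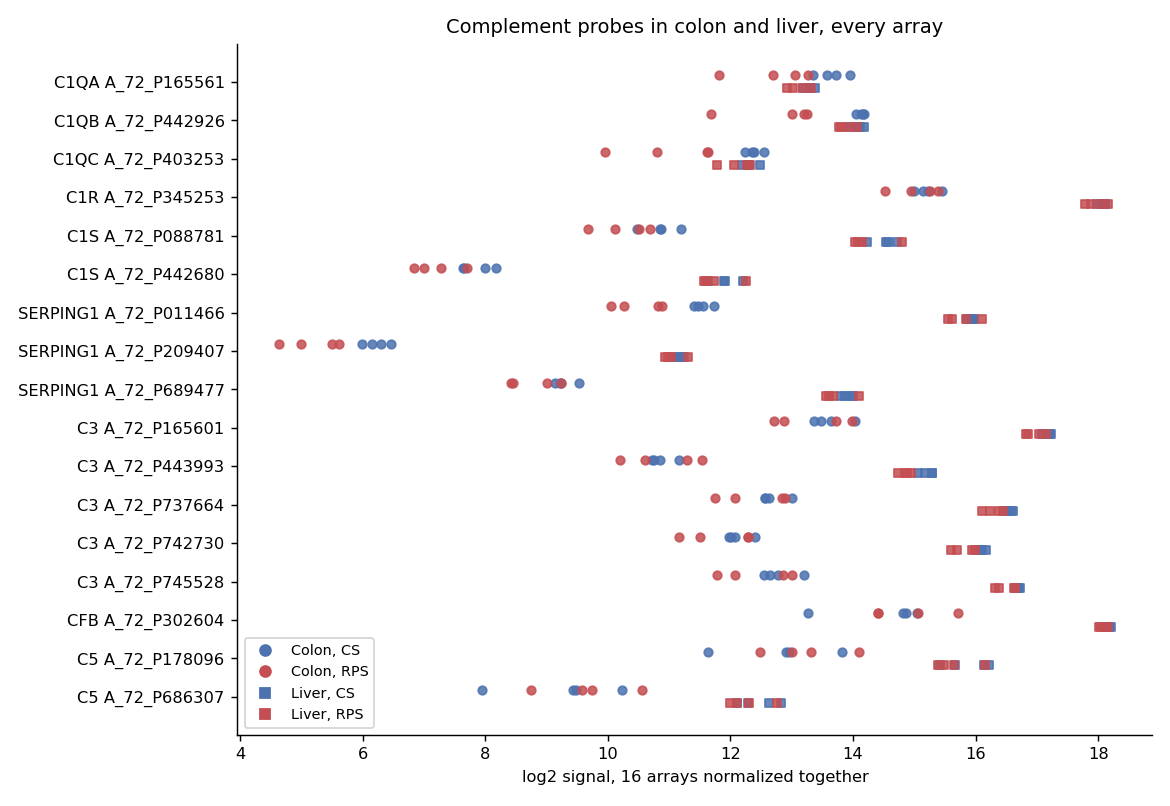
Log2 signal of each of the 17 complement probes on every array, the 16 arrays normalized together, with colon as circles and liver as squares, CS in blue and RPS in red. Signals of different probes are not comparable. The tissues overlap for C1QA, C1QB and C1QC and lie apart for all other probes.

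Macrophage markers did not follow 1 pattern between the tissues. TYROBP was higher in the colon by 0.74 and AIF1 by 0.09, whereas CD163, MRC1 and CD14 were lower by -2.06, -3.55 and -5.86.

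Of 39 other complement genes, listed by function and not by how they moved, 27 were on the array under their symbol. In the colon 1 of the 27 passed both thresholds, beside 2.94% of all probes, so the count is near the background. It was MASP1, a protease of the lectin pathway, which was higher with RPS by 1.15 ± 0.44 (limma unadjusted p = 0.0329, adjusted p = 0.892). Their median diet difference was 0.09, with 14 higher and 13 lower, beside 0.01 for all probes. The genes that act beside C1q did not pass: C2 differed by -0.17 ± 0.36 and C4A by -0.48 ± 0.36. C5AR1, the receptor for C5a, was lower by -0.52 ± 0.21 (limma unadjusted p = 0.0421), less than 1.5-fold. In the liver none of the 27 passed, and their median was -0.07.

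Between the tissues, 19 of the 27 were higher in liver and 5 higher in colon, beside 24% and 28.9% of all probes. All 6 terminal components (C6, C7, C8A, C8B, C8G and C9) and the fluid phase regulators C4BPA, VTN and CLU were higher in liver. C8A, C8B, MBL1 and MBL2 were not well above background on any colonic array, and C8A was at least 12157-fold higher in liver. C6, which joins C5b in the terminal complex, differed by -2.48 ± 0.26. Higher in colon were CFD, the protease that cleaves factor B, by 4.20 ± 0.16, the membrane regulators CD46 and CD55 by 2.79 and 2.37, the lectin FCN2 by 1.17 and properdin, CFP, by 0.71.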

How the data were processed

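The 16 arrays covered 4 pigs per diet in colonic mucosa and in liver. According to the file headers, Agilent Feature Extraction 10.7 had written intensity values for each spot, with background subtracted and no normalization between arrays, and the authors deposited these scanner files. Log2 values that the authors had quantile normalized in GeneSpring were deposited too and served as an alternative. No genome build is stated for the probes, so no coordinates are given.

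Spots of control probes and spots marked as outliers were not used. Processed signals were put on the log2 scale and quantile normalized, over 8 arrays for diet and over all 16 for tissue and interaction, and spots were averaged per probe. Each comparison was fitted over all 43603 probes with limma 3.58.1 in R 4.3.3 (lmFit and eBayes, the data.table package, version 1.17.8), with Benjamini-Hochberg adjustment over all probes. Calls for diet and interaction required both a change of over 1.5-fold and p under 0.05 before adjustment, and tissue calls an adjusted p under 0.05. Exact permutation tests were two-sided. The number of arrays limits the precision. The fits were tested on simulated data. Figures were drawn with matplotlib 3.10.9.

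Members, gene lists and tests were chosen with earlier results of these data known. Named are all members, with values on each array at the lead probe and at any other probe past both thresholds, and the other complement genes and markers at their brightest probe. C3 probe A_72_P443993 in the liver was added after its values were seen. Alternatives were 75th percentile scaling, quantile normalization over 16 arrays, normexp background (offset 50), outlier spots kept, the authors' log2 values, the methods' t-test, a filter for probes well above background, an intensity trend, 1 fit over 16 arrays, blocks for replicate number, pig and slide, stricter thresholds, probes averaged by member, members found through RefSeq or, added later, a shared Ensembl transcript, and each array left out in turn.

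Replicate numbers were checked for pairing over the 21801 brighter probes. The deviations of same-numbered colonic and hepatic arrays from their group means had an r of 0.154 to 0.381 in CS and -0.0888 to 0.122 in RPS, so the numbers were not taken to pair the samples.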

Additional observations from a re-analysis of the deposited data

Results flagged for a closer look

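Among 68 groups of 4 arrays (17 member probes in 4 groups), 4 had an array that stood far from the other 3 by Dixon's test at its 95% critical value, where chance gives about 1 group in 20. These were C1QB in the colonic RPS group, with replicate 4 at 11.79, C1S at A_72_P088781 in the hepatic RPS group, with replicate 3 at 14.86, C3 at A_72_P737664 in the colonic CS group, with replicate 3 at 13.02, and CFB in the colonic CS group, with replicate 3 at 13.28.

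The diet difference was lower in the colon than in the liver by a test of the difference itself for C1QA (-0.76), C1QB (-1.15), C1QC (-1.17) and SERPING1 at A_72_P011466 (-0.88) and A_72_P209407 (-0.95), in limma with unadjusted p under 0.05 and none past the adjusted p. For C1QC, with each tissue normalized on its own, the colonic difference was -1.30 and the hepatic one -0.22.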

How the results depend on the processing

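In the colon, the count of 6 complement probes past both thresholds stayed within 1.5 times of that under 21 of 23 alternatives, all of the called probes being lower with RPS. Finding members through RefSeq gave the same 17 probes and could not change the count, and averaging probes by member counted 5 of 9 genes. The count of probes was 3 with the fold threshold at 2 and 0 with an adjusted p under 0.05, and between 4 and 7 with each array left out in turn. In the liver the count was 0 under all 23 alternatives, of which the fold threshold at 2 and the RefSeq members could give no other count. The tissue count of 16 was 8 with probes averaged into 9 members of which each counts once, and 15 to 16 with an array left out. The interaction count of 5 was 3 after normexp background correction, 2 with the fold threshold at 2, and 4 to 6 with an array left out.

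With the replicate number as a block, the colon count was 5 (C1S probe A_72_P442680 was lost, limma unadjusted p = 0.0744) and the liver count 0. With the pig as a block the tissue count was 14, C1QB (adjusted p = 0.137 in limma) and C1QC (adjusted p = 0.178 in limma) being lost, and the interaction count was 5. These block values come from numbers that were not shown to pair the samples. With the slide as a random block in the tissue comparison (correlation -0.0462), the count was also 14, and the same 2 probes were lost. That fit held tissue but no term for diet, so the loss cannot be assigned to the slide. The methods' t-test called 6 complement probes in the colon, among 964 of all probes, and 0 in the liver, among 1147. After adjustment it called 0 of all probes in the colon and 1 in the liver.

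Over all probes, normexp correction lowered the calls from 1283 to 172 in the colon, from 1554 to 220 in the liver and from 1638 to 296 for the interaction. Scaling to the 75th percentile raised the colon calls to 1955, and the median of all probes moved by less than 0.1 on the log2 scale under every scaling. The cause of these shifts was not tested.

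Some values changed sign. The colon difference of C3 probe A_72_P443993 was -0.0467 after normexp. Under 75th percentile scaling the interaction was 0.0521 at C3 A_72_P742730, 0.0407 at C3 A_72_P737664, 0.0488 at C1R A_72_P345253 and 0.00377 at C3 A_72_P165601. At C3 A_72_P742730 it was also 0.00417 in the authors' log2 values and 0.00103 with outlier spots kept. With each array left out, the colon difference ranged from -0.17 to 0.26 at C3 A_72_P443993, from -0.00396 to 0.57 at CFB A_72_P302604 and from -0.0582 to 0.69 at C5 A_72_P686307. The tissue difference of C1QA ranged from -0.11 to 0.13. The interaction ranged from -0.17 to 0.21 at C3 A_72_P742730, from -0.35 to 0.0620 at C3 A_72_P745528, from -0.21 to 0.17 at C3 A_72_P737664, from -0.21 to 0.0866 at C1R A_72_P345253 and from -0.32 to 0.11 at C3 A_72_P165601. Of the values of single probes under alternatives, 283 of 306 in the colon, 306 of 306 in the liver, 403 of 425 between tissues and 351 of 391 for the interaction kept their direction and their side of the threshold.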

Other observations

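Another probe of the array, A_72_P407323, was named C1QB by the study but carries no gene name in the array files, shares at most 5 bases in a row with the C1QB probe, and was not counted as a member. It was chosen after its values were seen. It measured 5.53, 5.33, 5.08 and 5.19 on the colonic CS arrays and 6.59, 6.16, 6.79 and 6.92 on the RPS arrays, a higher signal with RPS by 1.33 ± 0.19 (limma unadjusted p = 0.000173, adjusted p = 0.209), which is the opposite direction to the C1QB probe. In the liver it differed by 0.11 ± 0.17.

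A further probe, A_72_P442675, has no gene symbol and was not counted as a member. Its description in the array files names complement C1s, and it shares an Ensembl transcript with the C1S probes. In the colon it differed by -0.23 ± 0.22 between the diets, less than either C1S probe, and in colon against liver by -3.37 ± 0.15, close to the -3.84 of the C1S lead probe.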
